A study of Homo sapiens with 66 samples.

Results

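The genes described here encode proteins of the small subunit processome, of the box C/D small nucleolar ribonucleoproteins and of the later pre-40S particles, which together build the small (40S) subunit of the ribosome. They were chosen by symbol as a list of 45 genes and matched to the count table by Ensembl identifier through GENCODE 29. The table held 44 of them among 13331 genes, and DDX47 is not analysed here. All 44 passed the filter on low counts, and 42 averaged at least 5 CPM (counts scaled to library size) over all libraries, while UTP4 and WDR46 lay below that level.

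Ribosomal RNA is transcribed in the nucleolus as a long precursor, which is folded, cut and chemically modified while proteins assemble on it. The U3 small nucleolar RNA belongs to the box C/D class, whose RNAs are carried by FBL, NOP56 and NOP58, and pairs with the precursor at the heart of the small subunit processome. The UTP-A, UTP-B, UTP-C and Mpp10 subcomplexes, helicases and several enzymes join there, and BYSL, LTV1, TSR1, PNO1, RRP12 and NOB1 act up to the last cut of 18S rRNA. Ribosome assembly genes are textbook targets of the transcription factor MYC, which is abundant in many leukaemias and binds the sequence CACGTG.

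RNA was measured in KBM7, a human cell line from chronic myeloid leukaemia, by QuantSeq, which reads the 3′ ends of polyadenylated RNA. In 9 engineered lines the dTAG degradation tag was on 1 protein each. It was on MED14, MED10, MED6, MED28, MED12, MED31, MED26 or MED1, which are subunits of the Mediator complex, or on CDK9, the kinase that releases paused RNA polymerase II. Each tagged line received 500 nM dTAG7, the compound that recruits tagged proteins for degradation, or DMSO. Wild-type KBM7 cells received 500 nM dTAG7, 100 nM dBET6, a degrader of BET bromodomain proteins, 250 nM THAL-SNS-032, a degrader of CDK9, or DMSO. Every treatment lasted 6 h. MED14 is the scaffold of Mediator, MED6 and MED28 lie in its head module, MED10, MED31, MED26 and MED1 in or next to its middle module, and MED12 in its kinase module. Each of the 22 groups had 3 libraries, called A, B and C here, from triplicate wells. Nothing says that these wells came from separate cultures, so p-values may reflect technical spread alone. Whether a tagged line is a single clone, and how much tagged protein was left at 6 h, is not given in the sources used here.

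Endogenous counts per library ran from 439261 to 4337368 (median 3016290.5), and spike-in counts from 10950 to 72684. CPM and log2 fold changes below are scaled to the spike-in RNA that was added to the lysates, unless TMM scaling is named, which sets the bulk of the genes to no change. The first scale carries any change in total RNA, and in these bulk samples fewer cells and less RNA per cell cannot be told apart. Endogenous RNA relative to spike-ins was 63.2% of the DMSO level with dTAG7 in the MED14 line, 19.2% in the CDK9 line and 11.3% with dBET6, each with an exact permutation p of 0.1 (two-sided; adjusted 0.15). No smaller p can be had from 3 libraries a group. A gene is called lower or higher where the adjusted p of edgeR's quasi-likelihood test, over all 12515 genes tested (12973 under TMM), is under 0.05. Fold changes are treated over DMSO of the same line, ± SE. All 14 haematopoietic markers on a fixed list were detected in all 30 DMSO libraries. Among markers of other cell types, EPCAM, CDH1, COL1A1 and COL1A2 were not in the table analysed here. Over the DMSO libraries KRT8 ran from 2.17 to 14.3 CPM, KRT18 from 17.9 to 54.4 CPM, PECAM1 from 4.76 to 25.9 CPM and CD3E from 0 to 3.61 CPM. Their part in the members' values was not tested. Among libraries, the members' median log2 distance from the DMSO mean was -0.61, -0.45 and -0.38 for dTAG7 libraries A to C of the MED6 line. It was 0.13, -0.19 and 0.04 for DMSO libraries A to C of the MED12 line. MED6 dTAG7 A and MED12 DMSO B stood lower than their partners on the spike-in scale only. Under TMM MED6 dTAG7 A was at -0.11, against -0.29 and -0.23 for B and C. MED12 DMSO B was at 0.03 under TMM, against 0.0006 and -0.03 for A and C.

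The 40S assembly genes as a group were lower after dTAG7 in the MED14 and MED10 lines, in part lower in the MED6, MED28, MED12, MED31 and MED26 lines, and not called in the MED1 line or in wild-type cells given dTAG7. In the MED14 line 42 of 44 members fell, where 62.7% of all tested genes were called lower. The members' median log2 fold change was -1.43 against -0.69 for all genes. In the MED10 line 40 fell (all genes: 18.9%), with medians of -0.86 for the members and -0.19 for all genes. The MED6 line had 34 lower (all genes: 18.2%), with medians of -0.49 and -0.27. The count was 19 without dTAG7 library A. Far fewer genes in general were called in the MED28 and MED12 lines than in the MED14 line. The MED28 line had 24 members lower (all genes: 4.14%) and medians of -0.44 for members and -0.04 for all genes. The MED12 line had 23 (all genes: 3.32%) and medians of -0.51 and 0.06. In the MED31 line 14 members fell (all genes: 2.65%). Between 4 and 10 were called when any single library was left out (8 without DMSO A, 5 without DMSO B, 10 without DMSO C, 7 without dTAG7 A, 4 without dTAG7 B and 8 without dTAG7 C). In the MED26 line 5 fell (all genes: 2.99%), namely UTP18, EMG1, NOP14, NOP58 and WDR43. The count was 2 to 4 with a library left out (2 without DMSO B, DMSO C or dTAG7 A, and 3 without dTAG7 B or C). No member was called higher in any of these lines.

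With dTAG7 in the MED1 line edgeR called 0 members lower (all genes: 0% called), as DESeq2 and limma did. At an unadjusted p under 0.05 there were 4 members, and all genes were not counted at that threshold. The members' median was -0.11. Wild-type cells with dTAG7 likewise had 0 members called by edgeR (all genes: 0% called lower), DESeq2 and limma, and a median of 0.10. At an unadjusted p under 0.05, 0 members were lower and 1 higher. All 44 members fell with dTAG7 in the CDK9 line (all genes: 95.3%), with dBET6 (all genes: 97.1%) and with THAL-SNS-032 (all genes: 96.2%), so these counts do not set the members apart. Their medians were -3.31, -4.32 and -3.21, against -2.93, -3.67 and -2.86 for all genes.

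TMM scaling, which takes out the shift shared by most genes, kept many of the calls in the Mediator lines and split the members in the CDK9 line. Under TMM 37 members were lower in the MED14 line (all genes: 16.5%; members' median -0.74). It was 36 in the MED10 line (all genes: 9.87%; -0.65) and 30 in the MED12 line (all genes: 5.61%; -0.54). The MED28 line had 25 (all genes: 4.33%; -0.40) and the MED31 line 15 (all genes: 3.04%; -0.30). The MED6 line had 7 (all genes: 3.55%; -0.21) and the MED26 line 2 (all genes: 1.37%; -0.15). Of these lines the MED6 line changed most between the scales, with 34 members lower on the spike-in scale and 7 under TMM. The MED1 line and wild-type cells with dTAG7 had 0 lower under TMM by edgeR (all genes: 0.00771% and 0% called). At an unadjusted p under 0.05 there were 7 and 0 members, and all genes were not counted at that threshold. In the CDK9 line 25 members were lower (all genes: 27%) and 2, FBL and DDX49, were higher (all genes: 20.6%). With dBET6 32 were lower (all genes: 23.6%) and 2, FBL and KRR1, higher (all genes: 17.6%). With THAL-SNS-032 25 were lower (all genes: 16.1%) and 1, FBL, higher (all genes: 13.5%).

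**Figure D1:**
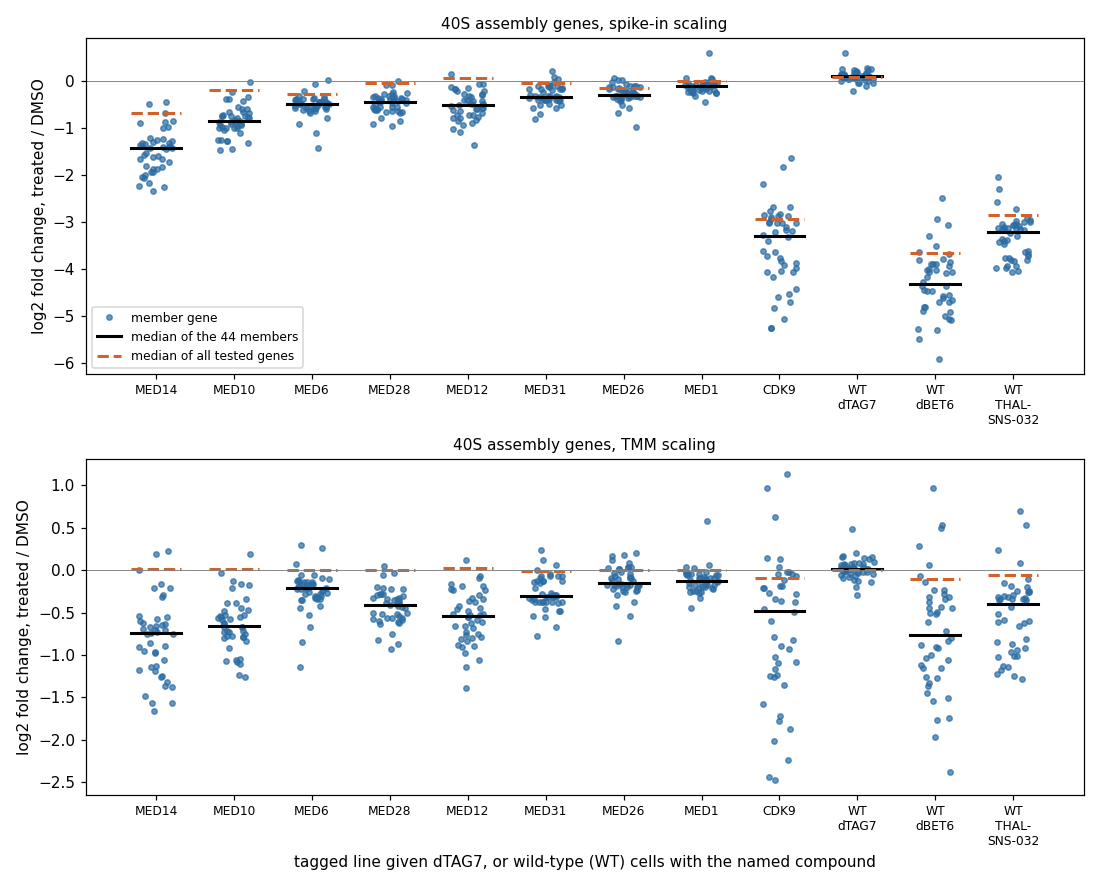
Log2 fold changes of the 44 members (points) in the 12 treated versus DMSO comparisons, on the spike-in scale (upper panel) and under TMM scaling (lower panel), with a solid line at the median of the members and a dashed line at that of all tested genes. In the MED14, MED10, MED28 and MED12 lines the members' median lay below that of all genes on both scales. A median below that of all genes was not limited to these lines, and the MED6 line also had it on the spike-in scale. In the CDK9 line the members spread from -2.47 (BYSL) to 0.97 (FBL) under TMM, with only WDR46 (1.14), which had few counts, above FBL.

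Promoter sequences are shown for the members on which the comparisons turn most: WDR43 and RRP9, which were low in most lines, FBL, which was not, and UTP18 and WDR3, partners in the UTP-B subcomplex that differed between lines. Each window runs from 250 bases before to 50 bases after the RefSeq gene start on GRCh38.p14, read 5′ to 3′ along the gene's own strand, with every CACGTG in capitals. This motif is its own reverse complement, so a single search covers both strands. The windows are chr2:28894417-28894716 (+ strand), chr3:51941855-51942154 (- strand), chr19:39846330-39846629 (- strand), chr17:51260296-51260595 (+ strand) and chr1:117929489-117929788 (+ strand).
WDR43: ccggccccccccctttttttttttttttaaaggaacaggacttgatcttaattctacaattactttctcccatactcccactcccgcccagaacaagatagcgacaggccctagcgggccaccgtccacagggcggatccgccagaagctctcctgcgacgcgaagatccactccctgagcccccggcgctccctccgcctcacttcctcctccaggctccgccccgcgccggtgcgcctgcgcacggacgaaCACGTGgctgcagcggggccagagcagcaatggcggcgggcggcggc
RRP9: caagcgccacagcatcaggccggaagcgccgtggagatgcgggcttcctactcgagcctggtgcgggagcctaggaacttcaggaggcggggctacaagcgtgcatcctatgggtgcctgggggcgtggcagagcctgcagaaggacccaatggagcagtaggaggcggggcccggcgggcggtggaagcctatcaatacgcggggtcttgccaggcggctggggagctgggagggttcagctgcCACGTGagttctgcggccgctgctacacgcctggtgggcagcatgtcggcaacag
FBL: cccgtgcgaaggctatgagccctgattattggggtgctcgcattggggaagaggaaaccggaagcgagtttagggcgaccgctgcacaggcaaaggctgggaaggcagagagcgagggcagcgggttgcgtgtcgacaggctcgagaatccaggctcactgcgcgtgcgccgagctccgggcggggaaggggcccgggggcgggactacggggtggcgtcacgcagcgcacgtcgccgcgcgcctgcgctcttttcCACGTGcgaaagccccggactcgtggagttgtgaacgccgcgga
UTP18: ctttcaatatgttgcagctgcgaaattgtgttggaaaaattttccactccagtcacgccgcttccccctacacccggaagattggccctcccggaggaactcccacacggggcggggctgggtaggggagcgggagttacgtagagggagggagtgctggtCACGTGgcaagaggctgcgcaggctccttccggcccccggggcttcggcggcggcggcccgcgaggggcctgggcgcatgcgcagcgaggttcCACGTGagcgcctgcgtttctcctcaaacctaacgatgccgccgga
WDR3: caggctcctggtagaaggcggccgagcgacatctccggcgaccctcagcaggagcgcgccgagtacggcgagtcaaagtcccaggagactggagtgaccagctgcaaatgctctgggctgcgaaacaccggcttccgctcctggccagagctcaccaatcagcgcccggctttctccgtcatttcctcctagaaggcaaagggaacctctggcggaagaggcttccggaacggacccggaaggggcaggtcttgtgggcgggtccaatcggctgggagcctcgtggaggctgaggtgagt
CACGTG lay close to the gene start in WDR43, RRP9 and FBL, occurred at 2 places in UTP18 and at none in WDR3. RefSeq promoters were matched for 36 of the 44 members, and 17 of these (47.2%) held the motif, against 975 of 9379 (10.4%) genes of the count table with a promoter and 2030 of 27305 (7.43%) promoters in all. The other lists held it in 14 of 40 (35%) promoters of 60S assembly genes, 6 of 21 (28.6%) of other 40S assembly genes, 1 of 5 (20%) of box H/ACA genes, 1 of 25 (4%) of 40S ribosomal protein genes and 0 of 6 of box C/D partner genes. Members with the motif had a median log2 fold change of -1.60 in the MED14 line (n = 17), and members without it -1.43 (n = 19). These medians in the MED12 line were -0.61 with and -0.50 without, and in the CDK9 line -3.17 with and -3.64 without, so the order differed between lines. WDR3 lacked the motif in this window and had the lowest mean over the Mediator lines, while FBL held it and was among the 5 highest.

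FBL, the methyltransferase that places 2′-O-methyl groups on ribosomal RNA, stood apart from its partners NOP56 and NOP58 in most lines. In the MED31 line FBL was not called but lay between them, at -0.40 against -0.49 for NOP56 and -0.33 for NOP58. FBL had 639, 673 and 598 CPM with dTAG7 in the MED14 line, against 968, 1067 and 1017 CPM with DMSO, a log2 fold change of -0.68 ± 0.14 (edgeR adjusted p = 5.41e-05). It was 0.01 ± 0.20 under TMM (adjusted p = 0.988). FBL had 321, 265 and 351 CPM with dTAG7 in the CDK9 line, against 1151, 1036 and 1165 CPM with DMSO, -1.84 ± 0.15 on the spike-in scale and 0.97 ± 0.21 under TMM (adjusted p = 0.000122), so the direction turned with the scaling. Treated and DMSO libraries did not overlap in either line. In the MED6 line FBL had 1444, 833 and 989.8 CPM with dTAG7, against 1153, 1088 and 1157 CPM with DMSO. Library A with dTAG7 lay above all DMSO libraries while the other two lay below them. The MED14 line was the only Mediator line of the 8 in which FBL was called on the spike-in scale, and in none was it called under TMM.

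NOP56 and NOP58 are paired core proteins that bind the snoRNA and place FBL on its target. NOP56 had 155, 169 and 163 CPM with dTAG7 in the MED14 line, against 437, 491 and 485 CPM with DMSO (-1.54 ± 0.12; edgeR adjusted p = 2.7e-18). It had 251, 261 and 242 CPM with dTAG7 in the MED12 line, against 461, 397 and 446 CPM with DMSO (-0.79 ± 0.11; adjusted p = 1.04e-06), again with no overlap. In the MED26 line NOP56 had 481, 495 and 554 CPM with dTAG7, against 540.2, 560.4 and 553 CPM with DMSO, and here the libraries overlapped. NOP56 fell in 6 of the 8 Mediator lines, and NOP58 in 7 (-1.26 in the MED14 line and -0.35 in the MED26 line). The NOP58 call in the MED26 line was lost without any library but DMSO A (adjusted p 0.0576 to 0.235), the MED31 call without any of the 6 and the MED28 call without DMSO A. In the CDK9 line NOP56 had 25.6, 38.8 and 41.7 CPM with dTAG7, against 500.2, 501 and 507 CPM with DMSO. Its log2 fold change under TMM was -1.08 ± 0.10, while that of NOP58 was -0.03 ± 0.09 and not called. Both genes also host snoRNAs in their introns, 5 in NOP56 and 4 in NOP58, per GENCODE 29.

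RRP9, the WD-repeat protein specific to the U3 particle, was called lower in 5 of the 8 Mediator lines. It had 10.6, 7.78 and 9.83 CPM with dTAG7 in the MED14 line, against 36.5, 35.6 and 40.3 CPM with DMSO (-1.95 ± 0.21; edgeR adjusted p = 1.27e-12). RRP9 had 22, 18.9 and 15.7 CPM with dTAG7 in the MED12 line, against 41.3, 32.5 and 37.9 CPM with DMSO (-1.02 ± 0.19; adjusted p = 0.000215). It had 34.5, 27.8 and 38.1 CPM with dTAG7 in the MED28 line, against 64.6, 60.1 and 63.5 CPM with DMSO (-0.91 ± 0.18; adjusted p = 0.000302). No treated library of these 3 lines reached the level of a DMSO library. With dTAG7 in the MED31 line the values were 47.5, 22.3 and 46.0 CPM, against 53.8, 50.3 and 45.9 CPM with DMSO, where only library B lay below the DMSO libraries by a wide margin. The MED6 call (-0.57 ± 0.18) was lost without DMSO A or dTAG7 A (adjusted p 0.0652 to 0.138).

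**Figure D2:**
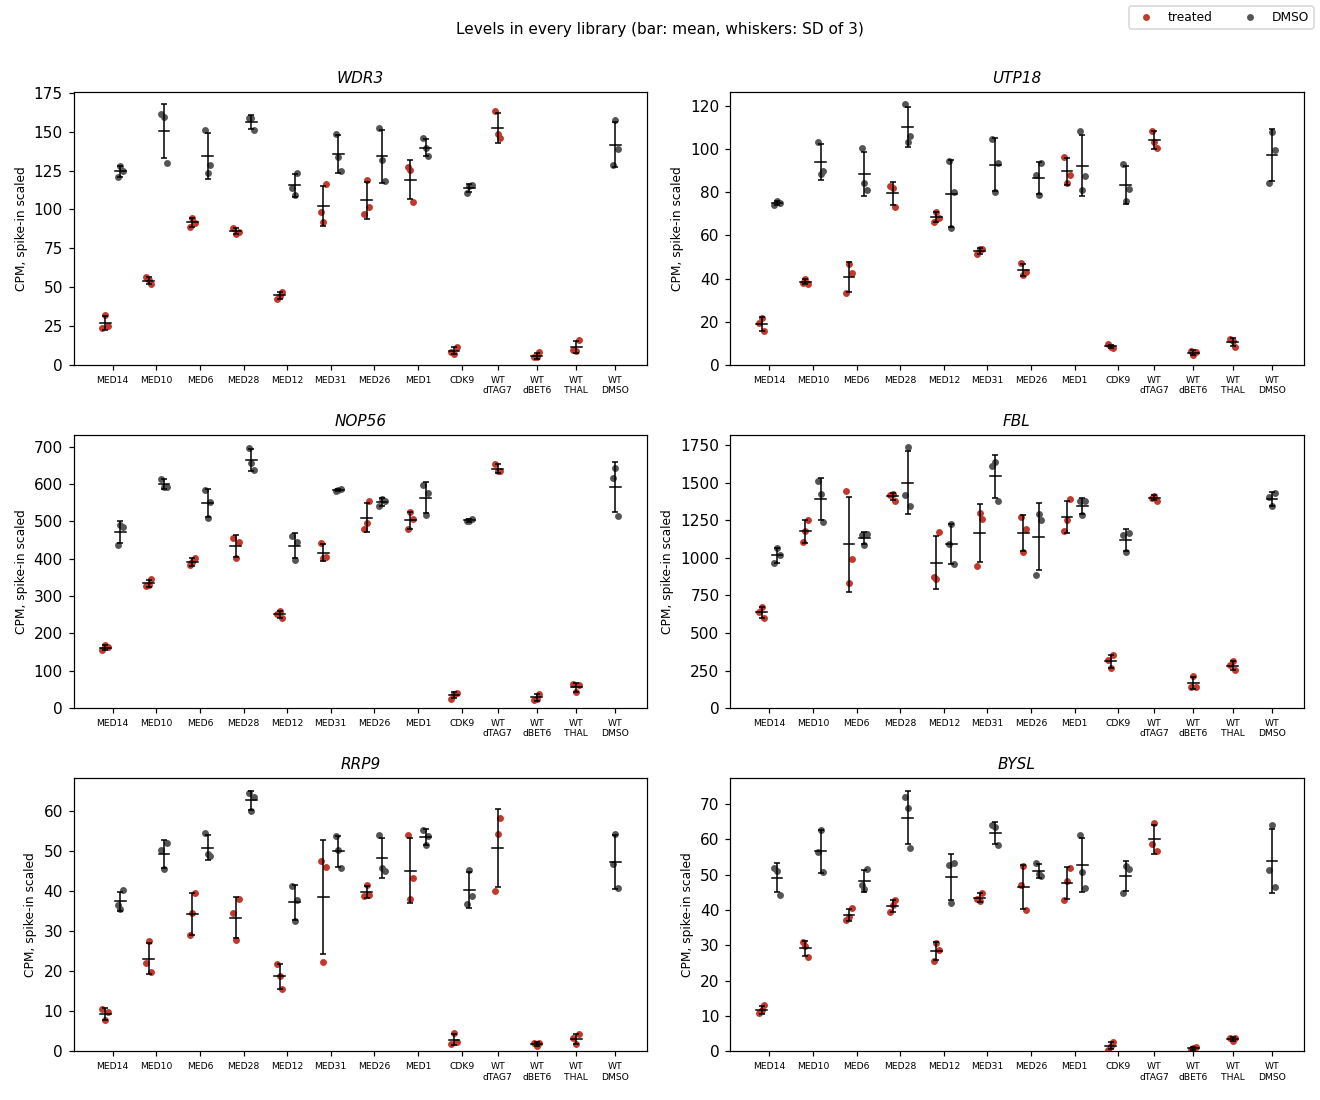
Levels of 6 members in every library, in CPM on the spike-in scale (each panel has its own linear axis from 0), with treated libraries left of the DMSO libraries of the same line, bars at the mean and whiskers of 1 SD (n = 3). WDR3 was low with dTAG7 in the MED12 line where UTP18 was not, UTP18 was low in the MED6, MED31 and MED26 lines, and FBL overlapped its DMSO libraries in most Mediator lines.

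The UTP-A proteins bind the start of the precursor, and in yeast and human cells several of them are also needed for its transcription. WDR43, of this subcomplex, had 69.2, 79.3 and 78.6 CPM with dTAG7 in the MED14 line, against 369.5, 353 and 356 CPM with DMSO (-2.25 ± 0.12; edgeR adjusted p = 1.38e-25). It had 169, 175 and 165 CPM with dTAG7 in the MED12 line, against 379, 371 and 337 CPM with DMSO (-1.09 ± 0.11; adjusted p = 5.24e-11). These libraries were far apart, with dTAG7 values well below the lowest DMSO value in each line. WDR43 was called lower in 7 of the 8 Mediator lines, the MED26 line included. There it had 298, 303 and 289.5 CPM with dTAG7, against 358, 409 and 398 CPM with DMSO (-0.39 ± 0.11), a call lost without any library but DMSO A (adjusted p 0.0746 to 0.142). Of the 6 UTP-A genes, 5 fell in the MED14 line (all genes: 62.7%), from -2.25 for WDR43 to -1.22 for WDR75. Under TMM 5 were lower as well (all genes: 16.5%). UTP4, with 1.40, 2.43 and 1.23 CPM with dTAG7 against 3.68, 1.88 and 3.23 CPM with DMSO, was not called. In the MED12 line WDR43 and HEATR1 (-0.58 ± 0.11) fell, while UTP15 (-0.42), WDR75 (-0.21) and NOL11 (-0.17) were not called on the spike-in scale. Under TMM 3 of the 6 UTP-A genes were lower in the MED12 line (all genes: 5.61%), against 2 on the spike-in scale (all genes: 3.32%). In the CDK9 line NOL11 was at -1.87 ± 0.23 and WDR75 at -1.58 ± 0.23 under TMM, both called, against -0.04 ± 0.12 for HEATR1, which was not.

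Within UTP-B, a scaffold of WD-repeat proteins that joins U3 to the precursor, WDR3 and UTP18 both fell in the MED14, MED10, MED6, MED28 and MED31 lines. WDR3 was called in the MED12 line and UTP18 was not, and in the MED26 line UTP18 was called and WDR3 was not. WDR3 had 23.8, 32.1 and 24.8 CPM with dTAG7 in the MED14 line, against 121, 128 and 124 CPM with DMSO (-2.24 ± 0.14; edgeR adjusted p = 2.33e-22). UTP18 had 19.4, 21.9 and 15.7 CPM with dTAG7 in the MED14 line, against 74.0, 76.2 and 75.0 CPM with DMSO (-2.01 ± 0.14; adjusted p = 2.5e-19). Both fell less far in the MED10 line, at -1.47 ± 0.13 for WDR3 and -1.28 ± 0.14 for UTP18. In the MED12 line, which carries the tag on a kinase module subunit, WDR3 had 42.6, 44.6 and 47.1 CPM with dTAG7, against 114, 109 and 124 CPM with DMSO (-1.36 ± 0.13; adjusted p = 4.73e-12). UTP18 had 66.4, 71.0 and 68.2 CPM with dTAG7, against 94.4, 63.6 and 80.1 CPM with DMSO (-0.21 ± 0.13; adjusted p = 0.397). The WDR3 libraries of the MED12 line did not overlap, whereas those of UTP18 did, through DMSO library B.

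In the MED26 line the order turned: UTP18 had 47.3, 41.5 and 43.3 CPM with dTAG7, against 88.0, 78.8 and 93.4 CPM with DMSO (-0.98 ± 0.13; edgeR adjusted p = 3.24e-07). WDR3 had 96.8, 119 and 102 CPM with dTAG7, against 152, 132 and 118 CPM with DMSO (-0.34 ± 0.12; adjusted p = 0.116), and its libraries overlapped. UTP18 was the member with the lowest log2 fold change in the MED26 line and in the MED31 line (-0.81 ± 0.13; 51.2, 53.6 and 53.8 CPM with dTAG7, against 104, 80.1 and 93.7 CPM with DMSO). In the MED6 line it had 33.4, 46.7 and 42.5 CPM with dTAG7, against 100.3, 84.4 and 81.2 CPM with DMSO (-1.11 ± 0.13). Under TMM it stayed called in the MED6 (-0.84), MED31 (-0.77) and MED26 (-0.84) lines. The dTAG7 effect differed among the 8 Mediator lines for UTP18 (F test, edgeR adjusted p = 7.56e-13) and for WDR3 (adjusted p = 3.23e-15). The difference between the 2 genes within a line was not tested. WDR36, another WD-repeat subunit, and UTP6 reached -1.65 and -1.31 in the MED14 line. They were at -0.50 and -0.06 in the MED12 line, neither called on the spike-in scale. Under TMM 2 of the 4 UTP-B genes were lower in the MED12 line (all genes: 5.61%), against 1 on the spike-in scale (all genes: 3.32%). The UTP18 call in the MED28 line (-0.47 ± 0.13) was lost without DMSO A or dTAG7 C (adjusted p 0.106 to 0.123). The WDR3 call in the MED31 line (-0.41 ± 0.12) was lost without DMSO A, DMSO B, dTAG7 A or dTAG7 B (adjusted p 0.118 to 0.249).

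NOL6 and RRP7A belong to UTP-C, and PDCD11, the relative of yeast Rrp5, binds the precursor and acts in both subunit pathways. NOL6 had 11.2, 12.2 and 12.5 CPM with dTAG7 in the MED14 line, against 40.2, 44.8 and 40.9 CPM with DMSO (-1.82 ± 0.21; edgeR adjusted p = 1.06e-11). In the MED28 line NOL6 had 32.8, 30.4 and 25 CPM with dTAG7, against 63.4, 57.5 and 52.1 CPM with DMSO (-0.97 ± 0.19), the lowest log2 fold change of a member in that line. Its values in the MED12 line were 19.2, 22.3 and 11.7 CPM with dTAG7, against 36.8, 22 and 34.8 CPM with DMSO (-0.86 ± 0.21), which overlapped. This call was lost without DMSO A or dTAG7 C (adjusted p 0.0531 to 0.168). RRP7A (-1.88) and PDCD11 (-1.63) fell as well in the MED14 line. All 3 genes fell in the MED10, MED6, MED28 and MED12 lines. In the CDK9 line they parted under TMM, at -1.26 ± 0.22 for RRP7A and -1.10 ± 0.26 for NOL6, both called, and 0.13 ± 0.12 for PDCD11, not called.

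IMP3, IMP4 and MPHOSPH10 form the Mpp10 complex, which holds U3 and the precursor together, and IMP3 and MPHOSPH10 were among the 3 members with the lowest log2 fold change in the CDK9 line. IMP3 had 13.6, 15.0 and 23.1 CPM with dTAG7 in the CDK9 line, against 617, 688 and 625 CPM with DMSO (-5.25 ± 0.23; edgeR adjusted p = 7.06e-26). MPHOSPH10 had 2.40, 3.34 and 4.46 CPM with dTAG7 in the CDK9 line, against 106, 105 and 105 CPM with DMSO (-5.06 ± 0.22; adjusted p = 1.11e-31). IMP4 differed, at -3.01 ± 0.15, which is close to the median of all genes, and at -0.19 ± 0.17 under TMM, where it was not called. In the MED14 line the 3 genes were near one another, at -1.28, -1.40 and -1.32 for IMP3, MPHOSPH10 and IMP4. IMP3 there had 228, 252 and 258 CPM with dTAG7, against 612, 576 and 601 CPM with DMSO, with no overlap. UTP3, a further early processome protein, had 4.90, 3.34 and 7.88 CPM with dTAG7 in the CDK9 line, against 75.2, 61.8 and 79.4 CPM with DMSO (-3.72 ± 0.20). In the MED14 line it reached -1.0 ± 0.15, and its mean over the Mediator lines was among the 5 highest. Its call in the MED10 line (-0.42 ± 0.15) was lost without any library but DMSO A (adjusted p 0.0699 to 0.0977).

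The 4 RNA helicases differed widely from one another. DDX10, which in yeast releases a snoRNA from the precursor, had 86.0, 92.4 and 87.0 CPM with dTAG7 in the MED14 line, against 288, 278 and 315 CPM with DMSO (-1.74 ± 0.11; edgeR adjusted p = 4.93e-22). It fell in 6 of 8 Mediator lines. Its call in the MED31 line (-0.35 ± 0.10) held only without DMSO A among the 6 libraries left out in turn (adjusted p otherwise 0.0518 to 0.242). DHX37, which removes U3 from the particle, fell in the MED14 (-1.40), MED10 (-0.94) and MED12 (-0.72) lines. DDX52, the relative of yeast Rok1, had 10.6, 10.7 and 14.7 CPM with dTAG7 in the MED14 line, against 17.6, 19.7 and 13.5 CPM with DMSO, which overlapped (-0.49 ± 0.20; adjusted p = 0.0301). This call was lost without DMSO A, DMSO B, dTAG7 A or dTAG7 B (adjusted p 0.0658 to 0.176). DDX52 was not called in the other 7 Mediator lines, where its log2 fold changes ran from -0.21 (MED1) to 0.20 (MED31). Under TMM it was at 0.19 ± 0.20 in the MED14 line. DDX49 had 16.9, 13.3 and 20.2 CPM with dTAG7 in the CDK9 line, against 77.3, 81.5 and 76.8 CPM with DMSO, which is -2.20 ± 0.13 on the spike-in scale and 0.63 ± 0.15 under TMM (adjusted p = 0.000316), so its direction depends on the scaling. In the Mediator lines DDX49 was called lower in 4 of 8, at -0.98 in the MED14 line. Its calls were lost in the MED10 line without DMSO A, DMSO B or dTAG7 A, in the MED12 line without dTAG7 C and in the MED6 line without DMSO C (adjusted p 0.0602 to 0.0979).

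Among the enzymes, RCL1, required with the GTPase BMS1 for early cuts of the precursor, had the lowest log2 fold change of all members in the MED14 line. It had 10.4, 11.7 and 15.7 CPM with dTAG7 in the MED14 line, against 61.2, 64.7 and 67.3 CPM with DMSO (-2.35 ± 0.29; edgeR adjusted p = 1.5e-09). EMG1, the methyltransferase that modifies a pseudouridine of 18S rRNA, had 27.6, 30.2 and 24.8 CPM with dTAG7 in the MED14 line, against 103, 118 and 117 CPM with DMSO (-2.05 ± 0.13; adjusted p = 4.44e-21). In the MED26 line EMG1 was one of 5 members called, with 89.4, 79.2 and 85.2 CPM with dTAG7, against 118, 122 and 135 CPM with DMSO (-0.57 ± 0.12; adjusted p = 0.00263). The groups did not overlap. Under TMM EMG1 was called lower in 7 of the 8 Mediator lines, more than any other member. On the spike-in scale its calls in the MED28 line, without any library but dTAG7 A, and in the MED31 line, without any but DMSO A, were lost (adjusted p 0.065 to 0.175 and 0.0958 to 0.186). NOB1, the endonuclease that makes the 3′ end of 18S rRNA, reached -1.39 ± 0.15 in the MED14 line and -1.72 ± 0.19 under TMM in the CDK9 line. NAT10, which acetylates cytidines of 18S rRNA, fell in 6 of 8 Mediator lines (-1.44 in the MED14 line), and BMS1 in 3 (-1.43 in the MED14 line). The call of RCL1 in the MED6 line (-0.91 ± 0.26) was lost without dTAG7 A (adjusted p 0.18). Reads of EMG1 and BMS1 may be shared with C1S, which overlaps EMG1 on the same strand, and with the 18 BMS1 pseudogenes.

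Most of the other processome proteins fell in the MED14 line, as did most genes. In the MED14 line 8 of 9 fell (all genes: 62.7%), and 6 of 9 under TMM (all genes: 16.5%). On the spike-in scale the 8 ran from -1.67 for NOL10 to -0.85 for KRR1. Between them were UTP20 (-1.60), UTP14A (-1.39), which activates DHX37, NOP14 (-1.36), UTP11 (-1.34), DCAF13 (-1.24) and UTP23 (-0.90). WDR46 was not called, with 1.40, 0.486 and 1.97 CPM with dTAG7 in the MED14 line, against 1.98, 2.58 and 1.18 CPM with DMSO, from at most 11 counts a library. In the MED6 line it had 1.57, 1.35 and 1.66 CPM with dTAG7, against 4.64, 2.40 and 5.27 CPM with DMSO (-1.42 ± 0.53; adjusted p = 0.0472), from 5 to 17 counts a library. KRR1, a KH-domain RNA-binding protein, had 102, 92.9 and 102 CPM with dTAG7 in the MED14 line, against 155, 187 and 194 CPM with DMSO (-0.85 ± 0.12; edgeR adjusted p = 7.1e-09), but -0.16 ± 0.09 under TMM, not called. In the MED28 line KRR1 had 193, 197 and 166 CPM with dTAG7, against 203, 173 and 177 CPM with DMSO, not called. Its log2 fold change in the MED12 line was -0.06 ± 0.12, not called either. With dBET6 KRR1 was -3.29 ± 0.14 on the spike-in scale and 0.28 ± 0.10 under TMM (adjusted p = 0.0237), a direction that turns with the scaling. KRR1 was also called in the MED10 (-0.34) and MED6 (-0.38) lines. These calls were lost without DMSO B, dTAG7 A or dTAG7 C of the MED10 line and without DMSO C or dTAG7 A of the MED6 line (adjusted p 0.0881 to 0.283). UTP23 combined -0.90 in the MED14 line with -4.06 in the CDK9 line, or -0.22 (not called) and -1.25 (called) under TMM.

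The 5 late pre-40S factors fell in the MED14 line (all genes: 62.7%) and in the MED10 line (all genes: 18.9%). They also fell in the CDK9, dBET6 and THAL-SNS-032 comparisons, in which nearly all genes did. BYSL, needed for export of the particle, had 10.8, 11.7 and 13.0 CPM with dTAG7 in the MED14 line, against 51.9, 51.1 and 44.4 CPM with DMSO (-2.06 ± 0.16; edgeR adjusted p = 1.25e-17). It had 0.544, 1.67 and 2.62 CPM with dTAG7 in the CDK9 line, against 44.8, 52.6 and 51.5 CPM with DMSO (-5.26 ± 0.23; -2.47 ± 0.25 under TMM), the lowest member there on both scales. With dBET6 BYSL had 0.529, 0.861 and 1.23 CPM, against 51.3, 64.1 and 46.5 CPM with DMSO (-5.91 ± 0.23), from 3 to 6 counts a library. PNO1, which guides NOB1, had 12.2, 9.73 and 13.8 CPM with dTAG7 in the MED14 line, against 51.9, 57.7 and 55.3 CPM with DMSO (-2.17 ± 0.18; adjusted p = 1.23e-16). It was at -1.31 ± 0.17 in the MED10 line. Its MED6 call (-0.54 ± 0.16) was lost without DMSO A or dTAG7 A (adjusted p 0.0831 to 0.137). RRP12, an export factor, paired -1.46 ± 0.19 in the MED10 line and -0.95 ± 0.19 in the MED12 line with 0.04 ± 0.29 under TMM in the CDK9 line. Its MED31 call (-0.70 ± 0.18) was lost without DMSO A, DMSO B, dTAG7 A or dTAG7 B (adjusted p 0.0518 to 0.136). LTV1 and TSR1 were at -1.94 and -1.57 in the MED14 line. TSR1 also fell in the MED12 line (-0.76 ± 0.12), while LTV1 was not called (-0.35 ± 0.23).

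**Figure D3:**
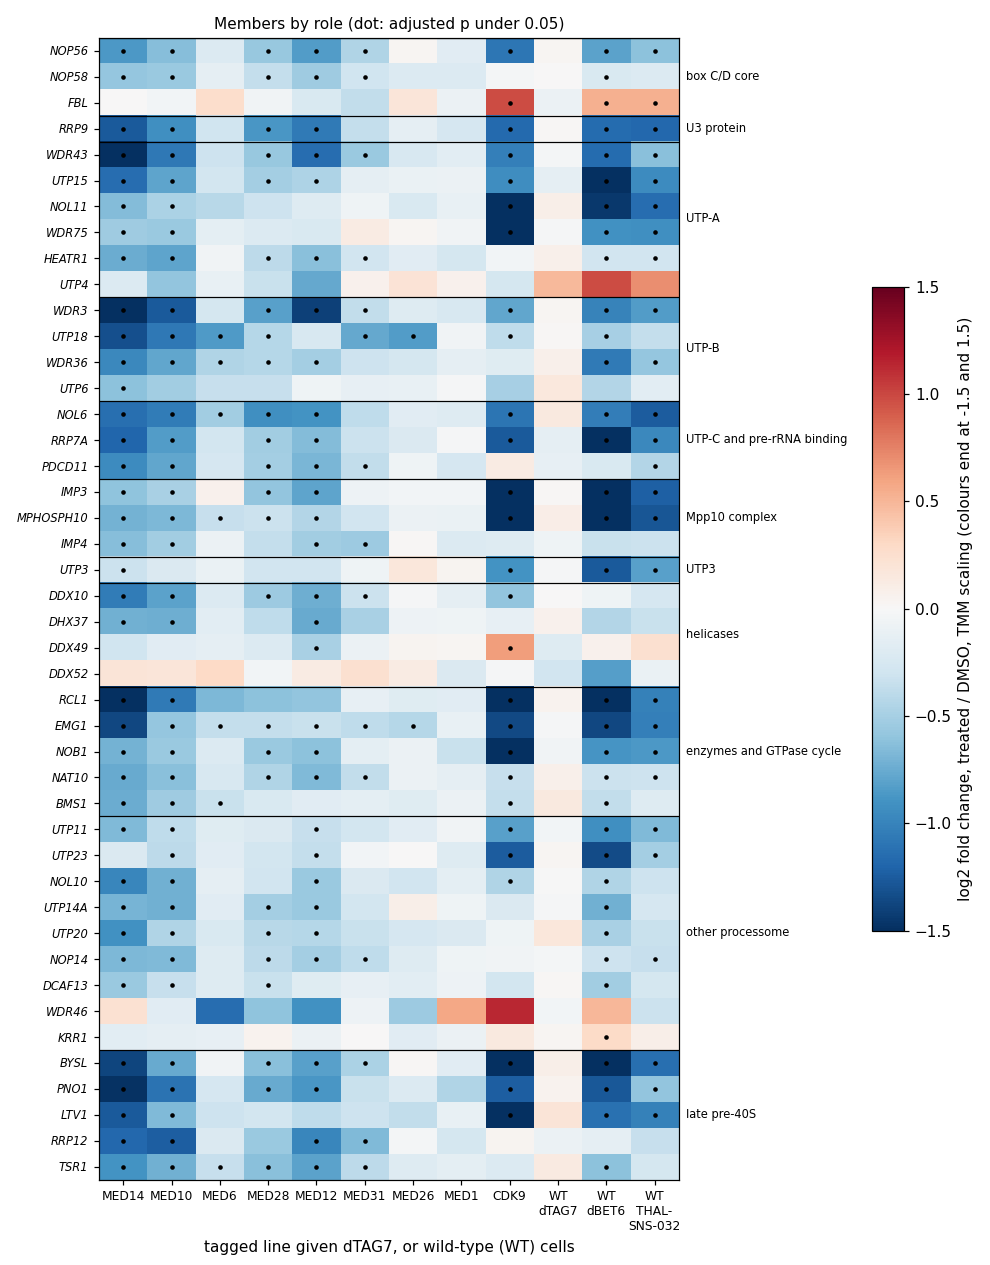
Log2 fold changes of all 44 members under TMM scaling (colour, cut at -1.5 and 1.5), ordered by role, in the 12 treated versus DMSO comparisons, with a dot where the adjusted p is under 0.05. Most members of the MED14 and MED10 columns are called lower, FBL and DDX49 are called higher in the CDK9 column, and UTP18 and EMG1 are the members called in the MED26 column.

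Members differed in how they answered to different Mediator subunits: 41 of 44 had a dTAG7 effect that differed among the 8 Mediator lines by the F test, where 45.6% of all genes did. Under TMM it was 32, where 12.5% did. The lowest p-values belonged to WDR43 (edgeR adjusted p = 8.31e-17), WDR3, DDX10 (adjusted p = 9.8e-14), UTP18 and EMG1 (adjusted p = 1.51e-12). The 3 members not called on the spike-in scale were UTP4, WDR46 and DDX52. By the mean log2 fold change over the 8 Mediator lines, WDR3 was lowest (-0.93), followed by WDR43 (-0.87), UTP18 (-0.86), PNO1 (-0.85) and NOL6 (-0.83). These first 5 were the same in the same order under TMM. At the other end were DDX52 (-0.05), FBL (-0.21), KRR1 (-0.25), UTP3 (-0.30) and DDX49 (-0.33). Most neighbours in this order differed by less than the SE of a single fold change, so only its ends can be read.

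Wild-type cells given dTAG7 hold the compound without its tagged target, and the effect in each Mediator line was set against the effect in these cells by a difference of fold changes. The members with a lower effect than in wild-type cells numbered 42 in the MED14 line (all genes: 56.7%) and 36 in the MED10 line (all genes: 13.9%). There were 23 in the MED6 line (all genes: 10.6%), 17 in the MED12 line (all genes: 1.65%) and 15 in the MED28 line (all genes: 1.91%). They numbered 5 in the MED31 line (all genes: 0.703%), 2 in the MED26 line (all genes: 1.25%) and 0 in the MED1 line by edgeR (all genes: 0%). At an unadjusted p under 0.05 the MED1 line had 7 members, and all genes were not counted at that threshold. UTP18 led in the MED26 line (-1.08 ± 0.18; edgeR adjusted p = 9.1e-05), followed by EMG1 (-0.64 ± 0.17; adjusted p = 0.0368). WDR3 (-1.47 ± 0.18) and WDR43 (-1.16 ± 0.16) led in the MED12 line, and in the MED28 line NOL6 (-1.21 ± 0.26) and RRP9 (-1.02 ± 0.25). These 8 contrasts share the same 6 wild-type libraries. Under TMM the MED6 count was 3, and the share of all genes on that scale is not given here.

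The order of the members within a line was compared between lines that share no library, as a description over 44 genes that are not independent replicates and that share each library's depth. The order in the MED14 line was most like that in the MED10 line (Spearman's rho 0.86), and the order in the MED12 line most like that in the MED28 line (0.83). The MED26 line was most like the MED6 line (0.67) and near 0 with the MED12 line (0.04). The CDK9 line was most like dBET6 (0.86) and THAL-SNS-032 (0.83) in wild-type cells, and its rho with the MED12 line was 0.08. Without UTP18 and the 2 members with few counts, which leaves 41, rho was 0.86 for MED14 and MED10, 0.87 for MED28 and MED12, 0.61 for MED6 and MED26 and 0.08 for MED12 and MED26. Gene length across the genome and DMSO level were only weakly related to the fold changes, with rho from -0.24 to 0.29 for length and from -0.14 to 0.16 for level over the 12 comparisons.

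**Figure D4:**
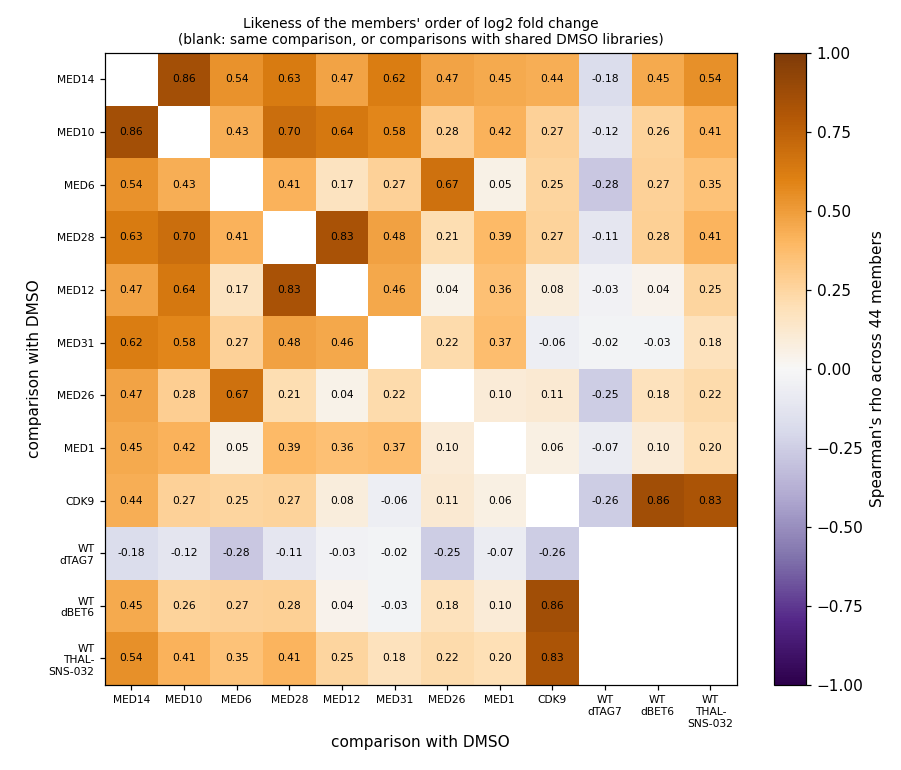
Spearman's rho of the members' log2 fold changes on the spike-in scale between comparisons that share no DMSO library (44 members per cell, blank where libraries are shared). The highest values join MED14 with MED10 (0.86), CDK9 with dBET6 (0.86) and MED28 with MED12 (0.83).

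The response to dTAG7 of part of the members differed between the MED14 and CDK9 lines under TMM, more often towards lower values in the MED14 line. Under TMM the effect was lower in the MED14 line than in the CDK9 line for 17 of 44 members (all genes: 15%). It was higher for 8 of 44, which is near the share of all genes (20%). On the spike-in scale, on which the CDK9 line lost far more RNA, it was higher for 43 (all genes: 88.3%). The 8 that were higher under TMM were IMP3 (1.84 ± 0.25; edgeR adjusted p = 1.18e-07), MPHOSPH10 (1.54 ± 0.22), NOL11 (1.22 ± 0.28), BYSL (1.10 ± 0.32), WDR75 (1.04 ± 0.28), UTP23 (1.03 ± 0.20), NOB1 (1.01 ± 0.24) and UTP3 (0.58 ± 0.21). The lowest differences were those of RRP12 (-1.23 ± 0.37; adjusted p = 0.00808), PDCD11 (-1.07 ± 0.16; adjusted p = 7.52e-08), FBL (-0.97 ± 0.29), UTP18 (-0.95 ± 0.21) and DDX49 (-0.92 ± 0.20). PDCD11 shows the pattern in levels: under TMM it had 54.0, 66.9 and 70.7 CPM with dTAG7 in the MED14 line, against 134, 117 and 115 CPM with DMSO. It had 109, 125 and 107 CPM with dTAG7 in the CDK9 line, against 102, 97.5 and 107 CPM with DMSO. IMP3 shows the opposite, with 409.5, 445 and 456 CPM with dTAG7 in the MED14 line, against 705, 616 and 661 CPM with DMSO under TMM. It had 106, 104 and 149.6 CPM with dTAG7 in the CDK9 line, against 612, 688 and 645 CPM with DMSO. PDCD11 with dTAG7 thus lay below DMSO in the MED14 line and at or just above it in the CDK9 line, and IMP3 lay below DMSO in both.

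**Figure D5:**
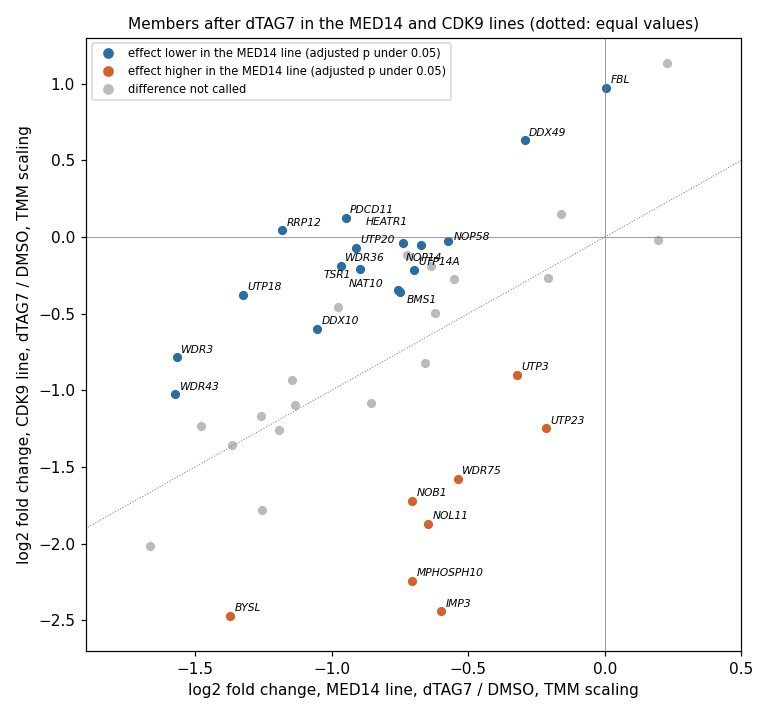
Log2 fold change of each member after dTAG7 in the MED14 line (x axis) and in the CDK9 line (y axis), TMM scaling, with colours for members whose 2 effects differ at an adjusted p under 0.05. IMP3, MPHOSPH10 and BYSL lie below the line of equal values, and PDCD11, RRP12 and FBL lie above it.

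dBET6 and THAL-SNS-032 degrade different proteins and were given at different doses, 100 nM and 250 nM, so the differences between them below carry the dose as well. On the spike-in scale 37 members were lower with dBET6 than with THAL-SNS-032 (all genes: 53%), and under TMM 3 were (all genes: 2.7%). These 3 were BYSL (-1.25 ± 0.34; edgeR adjusted p = 0.0364), UTP23 (-0.82 ± 0.20; adjusted p = 0.00683) and WDR43 (-0.53 ± 0.13; adjusted p = 0.00906). WDR43 had 168, 155 and 234 CPM under TMM with dBET6 and 246, 299.8 and 258 CPM with THAL-SNS-032, against 453, 384 and 406 CPM with DMSO. On the spike-in scale the lowest members with dBET6 were BYSL (-5.91), RCL1 (-5.50) and RRP7A (-5.30). With THAL-SNS-032 they were MPHOSPH10 (-4.08), NOL6 (-4.04) and IMP3 (-3.99). FBL was among the 3 highest of the members with at least 5 CPM under both, at -3.06 with dBET6 and -2.29 with THAL-SNS-032.

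Without a degrader the members in the MED12 line already differed from wild-type cells. In DMSO 8 members were lower in the MED12 line than in wild-type cells on the spike-in scale (all genes: 4.39%) and 9 under TMM (all genes: 5.62%). The 8 were NOL6 (-0.56 ± 0.19), RRP7A, NOP56 (-0.44 ± 0.11), UTP23, NOP58, PDCD11, NAT10 and NOP14 (-0.28 ± 0.09), to which TMM added NOB1. NOP56 had 461, 397 and 446 CPM in DMSO libraries of the MED12 line, against 615, 642 and 516 CPM in those of wild-type cells, with no overlap. The dTAG7 effects in the MED12 line above are thus relative to a baseline that is lower for these members. By the members' median, DMSO library B was the lowest of its 3 on the spike-in scale but the highest under TMM.

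Other genes of ribosome assembly, from lists chosen by name, were called lower in the MED14 line on both scales, whereas few 40S ribosomal protein genes were called lower under TMM. In the MED14 line, where 62.7% of all genes were lower with a median of -0.69, 47 of 47 genes of 60S assembly fell (median -1.57), as did 25 of 25 other 40S assembly genes (-1.16) and 6 of 6 box H/ACA genes (-1.5). So did 8 of 9 box C/D partner genes (-1.15) and 22 of 32 ribosomal protein genes (-0.51), the last near the share of all genes and with a median above theirs. Under TMM, where 16.5% of all genes were lower, the counts were 39 of 47, 16 of 25, 4 of 6, 6 of 9 and 2 of 32 in that order, with 4 ribosomal protein genes and 1 box C/D partner gene higher. The 60S list was led by NOP16 (-2.81 ± 0.18) and PPAN (-2.68 ± 0.21) and ended with NSA2 (-0.73 ± 0.11) and NVL (-0.65 ± 0.18). The ribosomal protein list ran from RPS26 (-1.41 ± 0.25) and RPS3A (-1.04 ± 0.17) to RPS18 (-0.32 ± 0.34) and RPS27 (-0.18 ± 0.26), the last 2 not called. The lowest of the other lists were NUFIP1 (-1.56) among box C/D partners, NAF1 (-1.82) among H/ACA genes and DIMT1 (-2.09) among other 40S assembly genes. In the MED12 line 28 of 47 60S assembly genes fell (all genes: 3.32%; median -0.51) and the ribosomal protein genes had a median of -0.02. In the CDK9 line under TMM, 26 of 32 ribosomal protein genes were higher (all genes: 20.6%; median 0.84), while 32 of 47 60S assembly genes were lower (all genes: 27%; median -0.70). On the spike-in scale 31 of the 32 ribosomal protein genes were lower there (all genes: 95.3%), with a median of -1.97.

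MYC, which is no member, is given for its known link to these genes, and its share in the members' values was not tested. MYC had 2.60, 6.81 and 2.95 CPM with dTAG7 in the MED14 line, against 52.1, 71.0 and 73.5 CPM with DMSO (-4.19 ± 0.46). In the MED28 line it had 13.7, 12.2 and 10.2 CPM with dTAG7, against 114, 82.2 and 98.4 CPM with DMSO (-3.03 ± 0.37). In the MED12 line it had 21.1, 13.5 and 13.8 CPM with dTAG7, against 78.9, 24.1 and 77.6 CPM with DMSO (-1.95 ± 0.37), where DMSO library B was far below its partners. MYC fell as well in the MED10 (-3.23 ± 0.39) and MED6 (-1.57 ± 0.33) lines, and was not called in the MED31 (-0.58 ± 0.30), MED26 (-0.13 ± 0.30) and MED1 (-0.68 ± 0.32) lines. The 5 members that host snoRNAs, 15 in all, were NOP56, NOP58, WDR43, TSR1 and NOL11. Their median was -1.54 in the MED14 line and -0.76 in the MED12 line, against -1.42 and -0.50 for the other 39 members.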

How the data were processed

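Raw counts per gene and loess-normalized signal were deposited by the authors for 66 libraries. Per the submitters' processing notes, hg38, STAR 2.5.2b, HTSeq 0.6.0 and bedtools 2.26.0 were used; their roles and the strand setting of the counting are not given in the sources used here. Reads of members whose exons overlap another gene are therefore uncertain. On the same strand these overlaps are C1S with EMG1, AL359921.1 with HEATR1, and AL049844.1 and AL049844.3 with LTV1. Others lie on the opposite strand. Reads of members that have pseudogenes (BMS1, NOP56, DCAF13, DDX10, IMP3, LTV1 and KRR1) are uncertain as well. Gene names, positions and snoRNA hosts came from GENCODE 29. Every gene of the deposited table had at least 70 counts in all and at least 20 libraries above 0. The ± of a fold change is an SE from the fit over all 66 libraries described below, not the spread of the 3 libraries of a group. Library depth is given with the results.

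Library sizes were the spike-in totals times the median ratio of endogenous to spike-in counts over the DMSO libraries. Counts passing filterByExpr were fitted over all 66 libraries (44 residual degrees of freedom) with 1 coefficient per group by edgeR 4.0.16 in R 4.3.3 with glmQLFit and glmQLFTest, and p-values were Benjamini-Hochberg adjusted over all genes tested, with a threshold of 0.05. The SE was taken as the log2 fold change over √F. Medians of library distances used a pseudocount of 0.5 CPM. Sequences and motif counts came from RefSeq promoters (GRCh38.p14) with Python 3.11.15. The steps were tested on simulated data. Alternatives were scaling by TMM or by median of ratios, 2 other low-count filters, DESeq2 1.42.0, limma 3.58.1 on log2 of the deposited loess signal plus 1, a replicate block, each comparison's libraries alone and each library left out.

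All members are named by role. Those given in most detail are the box C/D core and RRP9, the 5 lowest and 5 highest by mean over the Mediator lines with at least 5 CPM, the 3 lowest and 3 highest of each comparison, and the 5 lowest p-values of the F test. The members and lists were chosen with earlier results of these data known.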

Additional observations from a re-analysis of the deposited data

Results flagged for a closer look

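The dTAG7 effect differed among the 8 Mediator lines for 41 of 44 members by an F test of the difference (all genes: 45.6%), and for 32 under TMM scaling (all genes: 12.5%). Between the MED14 and CDK9 lines under TMM scaling, 17 members had a lower effect in the MED14 line (all genes: 15%) and 8 a higher one, near the share of all genes (20%). Set against the dTAG7 effect in wild-type cells, the effect was lower for 42 members in the MED14 line (all genes: 56.7%), 36 in the MED10 line (all genes: 13.9%) and 23 in the MED6 line (all genes: 10.6%). The MED6 count was 3 under TMM, for which the share of all genes is not given here. It was lower for 17 in the MED12 line (all genes: 1.65%), 15 in the MED28 line (all genes: 1.91%), 5 in the MED31 line (all genes: 0.703%) and 2 (UTP18 and EMG1) in the MED26 line (all genes: 1.25%). These contrasts were taken up because each tests a difference between effects, and the 7 set against wild-type cells share the wild-type libraries.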

How the results depend on the processing

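Most counts and fold changes of the members kept their direction and side of the threshold. Among 127 fold changes of named members, calls were lost for 25 under TMM, 26 under median-of-ratios and 18 with the comparison's libraries alone. They were lost for 16 by limma, 3 with the replicate block and 1 with no filter. With each library left out in turn, a call was lost in 68 pairs of a fold change and a left-out library, and 694 such pairs stayed the same. All fold changes that turned direction did so under TMM or median-of-ratios scaling. The number of members lower in the MED6 line was 34 with spike-ins, 7 under both TMM and median-of-ratios scaling, 16 by limma and 1 when its 6 libraries were fitted alone. It was 3 in the MED12 line fitted alone, 6 in the MED31 line by limma, and in the MED26 line 2 under TMM, median-of-ratios and limma, 9 by DESeq2 and 17 alone. In the CDK9 line it was 25 under TMM and 22 under median-of-ratios, with THAL-SNS-032 25 and 23, and with dBET6 24 under median-of-ratios. The difference between the MED14 and CDK9 effects, 0 lower (edgeR, and 0 at an unadjusted p under 0.05) and 43 higher with spike-ins, was 17 and 8 under TMM. The lower count against wild-type dTAG7 became 3 for MED6, 3 for MED31 and 1 for MED26 under TMM, and that of dBET6 against THAL-SNS-032 became 3 (all genes: 2.7%). For the contrasts against wild-type dTAG7 the TMM shares of all genes are not given here, so these TMM counts do not set the members apart. In DMSO, the MED14 line had 4 members lower than wild-type cells with spike-ins, and 0 lower (edgeR, and 0 at an unadjusted p under 0.05) and 1 higher under TMM. The share of all genes in this DMSO contrast is not given here, so these counts do not set the members apart.

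Directions turned as follows. Under TMM and median-of-ratios, FBL was 0.97 and 1.10 (CDK9 line), 0.00613 and 0.0462 (MED14 line), 0.53 and 0.60 (THAL-SNS-032) and 0.54 and 0.69 (dBET6), DDX49 was 0.63 and 0.75 (CDK9 line), 0.24 and 0.31 (THAL-SNS-032) and 0.065 and 0.22 (dBET6), KRR1 was 0.15 and 0.27 (CDK9 line), 0.0857 and 0.16 (THAL-SNS-032) and 0.28 and 0.44 (dBET6), and DDX52 was 0.19 and 0.23 (MED14 line). Median-of-ratios alone turned DDX10 (0.0913, dBET6), DDX52 (0.0919, CDK9 line) and NOP58 (0.0953, CDK9 line). Each of these was below 0 with spike-ins. By construction both scalings set the typical gene to no change; no other cause was tested.

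With 1 library left out the counts ran from 19 to 35 in the MED6 line, 4 to 10 in the MED31 line and 2 to 4 in the MED26 line. Replicate letters did not pair the libraries, as no same-letter correlation of deviations exceeded 0.1 (range -0.22 to 0.06). With the letter as a replicate block the counts were 42 (MED14), 40 (MED10), 33 (MED6), 24 (MED28), 23 (MED12), 11 (MED31) and 5 (MED26), and 3 for MED31 against wild-type dTAG7; DDX10, NOP58 and WDR3 lost their calls in the MED31 line. Depth limits UTP4 and WDR46, and BYSL in the CDK9 line with dTAG7 and with dBET6, where few counts remained.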
